A study of Bos taurus with 8 samples.

Results

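The 8 genes TP63, SFN, IVL, TGM1, TGM3, PI3, MAL and TMEM79 were followed as a panel of squamous differentiation and the cornified envelope. They were chosen by symbol, with results of these data in view, and each was read by 1 probe of the array's annotation, 8 genes out of 15216 named on the array. The samples were granulosa cells of 4 Holstein heifers at 8, 11 and 14 months of age, and the heifers were compared with themselves. Each of 4 dual-colour arrays set the RNA of a heifer at 8 months against that of the same heifer at 14 months, and each of 4 others set RNA at 11 months against 14 months. The younger age was in Cy5 for heifers 1 and 2 and in Cy3 for heifers 3 and 4. All ages shared 1 treatment, per the labels' protocols. Heifers received progesterone from a vaginal device, the dominant follicle was removed, FSH was injected repeatedly, and follicles were then aspirated through the vaginal wall. RNA came from pools whose make-up is not given, and it was amplified in a linear reaction before labelling. The series' design text speaks of blastocysts where the sample labels say granulosa cells, a conflict that was not settled.

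Granulosa cells line the ovarian follicle, make oestradiol and surround the oocyte, and they are not a squamous tissue. Stratified squamous epithelium covers the skin and lines the mouth, oesophagus and vagina. Its basal cells depend on the transcription factor p63, encoded by TP63, and as they move outwards they make envelope precursors such as involucrin, encoded by IVL. Transglutaminases cross-link these precursors into the cornified envelope, a protein shell beneath the cell membrane. SFN encodes 14-3-3 sigma, the epithelial member of an adaptor protein family, and PI3 encodes elafin, an inhibitor of neutrophil elastase that is itself a transglutaminase substrate. MAL encodes a membrane proteolipid of apical transport, and TMEM79 encodes mattrin, a membrane protein of the secretory granules of upper epidermal cells.

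Each channel is given as the unnormalized median spot intensity, and each array as the log2 ratio of the younger age over 14 months after normalization. A probe counted as above background where its intensity was over 2 SD above the average of 153 negative controls, a limit between 218 and 350 depending on array and dye. Between 43.3% and 57.3% of probes passed it in a channel. All 11 granulosa markers checked were measured, and their summed levels ranged from 138000 to 189000 at 8 months, from 80400 to 215000 at 11 months and from 165000 to 200000 at 14 months. The 14-month channels of heifers 1 and 2 correlated at 0.985 and 0.988 between each heifer's 2 arrays, across 22692 probes. Those of heifers 3 and 4 correlated at 0.956 and 0.963, below the 0.971 and 0.977 found between heifers 3 and 4 within the same set of arrays. Mean ratios of the 8 genes are therefore also given with the 14-month level of the heifer's other array, and other genes only with that of their own array. In RNA from pools whose make-up is not given, more cells of a type and more RNA per cell cannot be told apart. Heifers are identified here by the replicate number of the labels, and each age of a heifer is 1 sample. The spread below is therefore taken as the spread between 4 heifers.

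At 8 months, SFN, IVL, PI3, MAL and TMEM79 had mean log2 ratios from 1.92 to 3.35 over 14 months, while TP63 and TGM1 stayed at the dim end of the array and TGM3 was lower in 3 of 4 heifers. The median ratio of the 8 genes was 2.02 in this comparison and 0.04 in that of 11 with 14 months. Over all 10206 genes measured the median ratios were 0.013 and -0.005. Of the 8 genes, 7 passed the filter on dim probes, and limma's test across all probes called 3 of them at 8 months, SFN, PI3 and TMEM79, all 3 higher, where 3.84% of all 22692 probes were called, 3.24% as higher and 0.599% as lower. Without heifer 3 the test called 0 probes at 8 months, and without heifer 4 it called 37. At 11 months it called 0 of the 7, where 0% of probes were called. The smallest adjusted p of any probe was then 0.661, although 1702 probes had an unadjusted p under 0.05. A ratio above 0 in all 4 heifers at 8 months was found for 5 of the 8 genes, TGM1 among them, against 17.4% of all genes measured. TGM1 did not pass the filter that the 10206 genes behind this share had passed. The 8 genes were picked with these contrasts known, so the counts are a description and nothing is read from them.

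**Figure D1:**
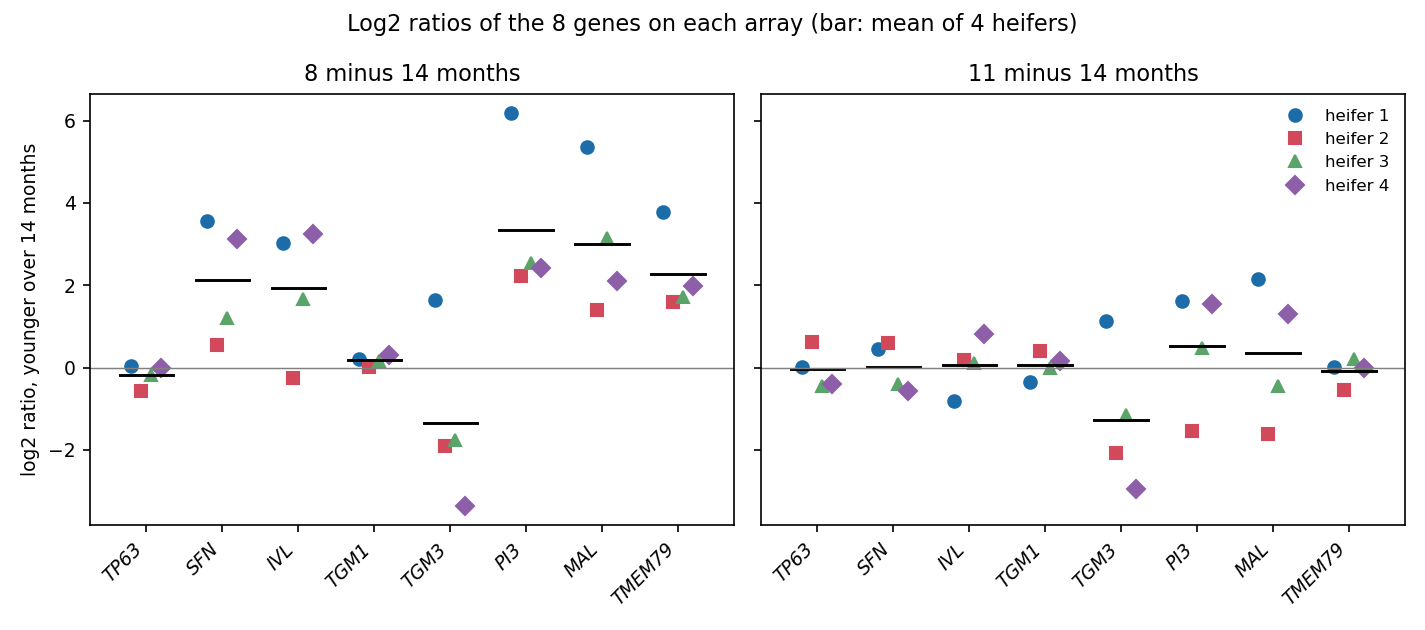
Normalized log2 ratio (vertical axis) of each of the 8 genes on each array, with 8 minus 14 months on the left and 11 minus 14 months on the right. Points are heifers and bars the mean of 4 heifers. PI3, MAL, TMEM79 and SFN lie above 0 in all 4 heifers at 8 months, and the TGM3 points keep the same order of heifers in both panels.

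TP63, which specifies the basal cells of stratified epithelia, was read by probe EMBV3_27437. It gave 372, 239, 281 and 317 in heifers 1 to 4 at 8 months, against 253, 254, 255 and 257 at 14 months on the same arrays. On the 11-month arrays it gave 381, 296, 295 and 301 at 11 months, against 322, 195, 367 and 343 at 14 months. These readings lie around the background limit, which 9 of 16 channels passed, and the ages overlap. The log2 ratio averaged -0.18 ± 0.28 at 8 months and -0.05 ± 0.50 at 11 months (SD, n = 4 each). No difference in TP63 was detectable at this signal.

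SFN, known for its high level in keratinocytes and its link to cell cycle arrest, was read by probe EMBV3_34532. It gave 3378, 374, 873 and 3590 at 8 months, against 307, 237, 325 and 381 at 14 months in the same heifers. The reading was far above the others in heifers 1 and 4, intermediate in heifer 3 and just above background in heifer 2. The log2 ratios were 3.57, 0.56, 1.21 and 3.13, a mean of 2.12 ± 1.46 (SD, n = 4) or 4.34-fold, higher in 4 of 4 heifers. At 11 months SFN read 367, 349, 260 and 315, against 250, 226, 323 and 375 at 14 months, and the mean ratio was 0.02 ± 0.58. The probe was above background at 8 months in 4 of 4 heifers, at 11 months in 3 of 4 and in 5 of 8 channels at 14 months. Its 14-month level therefore lay near the limit of measurement. With the 14-month level of the other array, SFN stood at 2.71 at 8 months and -0.58 at 11 months.

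IVL, the envelope precursor involucrin, was read by probe EMBV3_00608 and had the same 3 heifers high. It gave 2268, 395, 895 and 2714 at 8 months, against 294, 335, 274 and 295 at 14 months. The log2 ratios were 3.03, -0.25, 1.67 and 3.25, a mean of 1.92 ± 1.61 or 3.79-fold, so heifer 2 did not share the difference and the spread was nearly as large as the mean. IVL did not pass the test at 8 months. At 11 months it read 284, 283, 309 and 514, against 325, 220, 300 and 321 at 14 months, with a mean ratio of 0.07 ± 0.68. Only 2 of these 4 channels at 11 months were above background, the brighter being heifer 4.

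Neither transglutaminase had the pattern of IVL. TGM1, the membrane-bound cross-linking enzyme of keratinocytes, was read by probe EMBV3_15862 at 282, 268, 276 and 323 at 8 months, against 175, 216, 214 and 219 at 14 months. At 11 months the readings were 285, 279, 274 and 318, against 282, 191, 285 and 272 at 14 months. With 3 of 16 channels above background the probe was not kept and not tested, and no change in TGM1 was detectable at this signal. Its mean ratios were 0.18 ± 0.12 and 0.06 ± 0.31.

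TGM3, a transglutaminase of the hair follicle and upper epidermis, was above background in all 16 channels of probe EMBV3_07026. It gave 2142, 986, 694 and 694 at 8 months, against 659, 2939, 1587 and 4711 at 14 months. Heifer 1 was higher at 8 months and the other 3 heifers were lower, with log2 ratios of 1.64, -1.90, -1.77 and -3.35 and a mean of -1.34 ± 2.11 (SD, n = 4). At 11 months TGM3 read 1518, 1058, 1058 and 1192, against 798, 2744, 2421 and 8155 at 14 months. The ratios 1.12, -2.08, -1.16 and -2.96 had the same sign in each heifer as at 8 months and averaged -1.27 ± 1.75. Both sets of ratios were taken over the heifer at 14 months, the age at which the heifers differed most. Normalized log2 levels at 14 months ran from 9.46 to 12.72, against 9.40 to 10.58 at 11 months. The 14-month level differed by at most 0.14 between the arrays of a heifer. TGM3 passed the test in neither comparison.

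PI3, the antiprotease elafin, was above background in all 16 channels of probe EMBV3_09207. It gave 23080, 4071, 2385 and 13651 at 8 months, against 367, 852, 369 and 2189 at 14 months. Every unnormalized 8-month reading exceeded every 14-month reading of those arrays. After normalization, the 8-month level of heifer 3, 11.15, lay below the 14-month level of heifer 4, 11.30. The log2 ratios were 6.18, 2.23, 2.55 and 2.42, a mean of 3.35 ± 1.90 or 10.2-fold, with heifer 1 far above the other 3. At 11 months PI3 read 908, 349, 602 and 10558, against 363, 623, 500 and 3657 at 14 months. The ratios were 1.61, -1.54, 0.47 and 1.54, a mean of 0.52 ± 1.47, so the heifers were split in direction. Heifer 4 had the highest reading at 11 and at 14 months.

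MAL, a proteolipid of apical membrane traffic, was also above background in all 16 channels, of probe EMBV3_09742. It gave 10167, 7673, 3416 and 4484 at 8 months, against 292, 2950, 362 and 879 at 14 months. All 4 unnormalized readings at 8 months exceeded the 4 at 14 months, and the log2 ratios were 5.35, 1.39, 3.14 and 2.10, a mean of 2.99 ± 1.73 or 7.96-fold. MAL did not pass the test. On the other arrays MAL read 1090, 1729, 1883 and 8478 at 11 months, against 317, 3234, 2818 and 3428 at 14 months, with ratios of 2.14, -1.62, -0.45 and 1.31 and a mean of 0.35 ± 1.70. The 14-month readings of heifers 3 and 4 thus differed between their arrays, 362 and 2818 in heifer 3 and 879 and 3428 in heifer 4. As normalized log2 levels the array with 8 months was lower by 2.52 and 1.33 in these heifers. With the 14-month level of the other array, the mean ratio of MAL was 2.01 at 8 months and 1.33 at 11 months, and with both arrays averaged it was 2.50 and 0.84. No other of the 8 genes moved as far at 8 months.

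TMEM79, encoding mattrin, whose loss in mice gives the matted coat, had the smallest spread among the genes with high ratios. Probe EMBV3_05516 gave 11861, 4087, 4118 and 10729 at 8 months, against 867, 1332, 978 and 2321 at 14 months, and these ages did not overlap on these arrays. The log2 ratios were 3.79, 1.59, 1.72 and 1.97, a mean of 2.27 ± 1.03 (SD, n = 4) or 4.82-fold. At 11 months it read 637, 1450, 1277 and 3418, against 617, 1374, 1196 and 3322 at 14 months. The readings at these ages lay close together within each heifer, and the mean ratio was -0.08 ± 0.32. Heifer 4 was highest at both 11 and 14 months.

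With the 14-month level of the other array, the mean ratio at 8 months was 3.51 for PI3, 2.52 for TMEM79, 2.46 for IVL, -1.34 for TGM3, -0.19 for TP63 and 0.07 for TGM1, and the median of the 8 genes was 2.24. At 11 months that level gave 0.35 for PI3, -0.34 for TMEM79, -0.46 for IVL, -1.27 for TGM3, -0.04 for TP63 and 0.16 for TGM1, with a median of -0.19. Single heifers also moved the values, as fitted with the dye term. Without heifer 1 the 8-month ratios were 1.59 for SFN, 1.31 for IVL, 2.17 for PI3, 1.93 for MAL, 1.69 for TMEM79 and -2.28 for TGM3. Without heifer 2 they were 2.83, 2.59, 4.08, 3.90, 2.65 and -0.54 for the same genes. No sign turned at 8 months in these 6 genes when heifer 1 or 2 was left out. At 11 months PI3 stood at -0.08 without heifer 1 and 1.56 without heifer 2, and MAL at -0.53 and 1.37. With a heifer left out the dyes are not balanced, so these fitted values depend on the dye term. They are not means of the remaining heifers, and the change of sign cannot be assigned to the heifer.

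**Figure D2:**
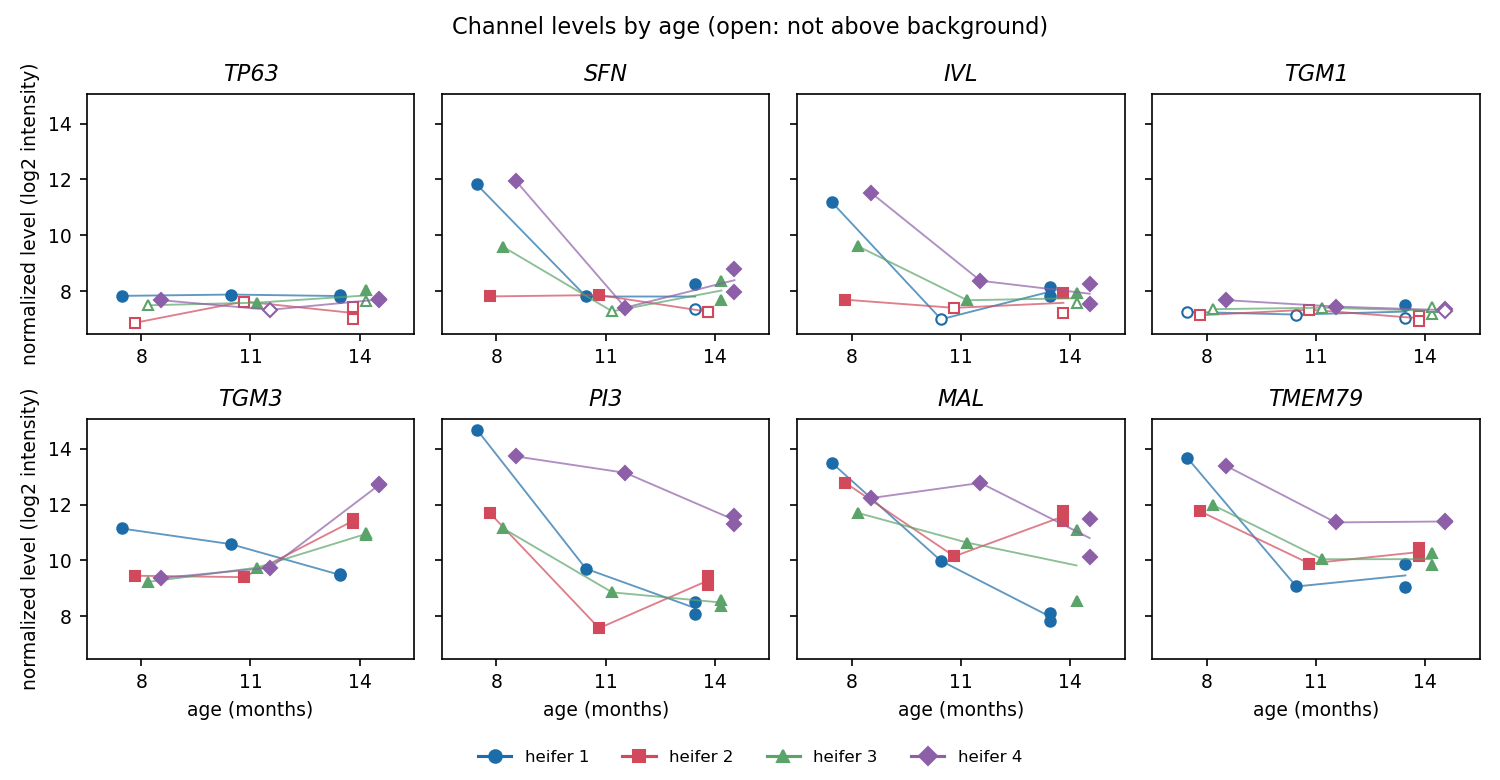
Normalized level (log2 intensity, vertical axis) of each gene by age (horizontal axis, months) in 4 heifers. Each heifer has 2 points at 14 months, 1 per array, lines pass through their mean, and open symbols were not above background. MAL shows separate 14-month points in heifers 3 and 4, and TGM3 is the gene whose heifers diverge at 14 months.

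The order of the ages differed by gene. Median normalized log2 levels of TMEM79 were 12.68 at 8 months, 9.97 at 11 months and 10.21 at 14 months, and the 8-month values, from 11.76 to 13.68, lay above all others, which reached 11.41. SFN had medians of 10.71, 7.62 and 7.83 and IVL of 10.40, 7.54 and 7.88, but in both genes the lowest 8-month level, that of heifer 2, lay within the range of the other ages. PI3 had medians of 12.71, 9.28 and 8.86, and its highest 11-month level, 13.13 in heifer 4, exceeded the lowest at 8 months, 11.15, as did its highest 14-month level, 11.60. Medians of MAL were 12.51, 10.39 and 10.61, with maxima of 12.77 at 11 months and 11.77 at 14 months, both above the lowest level at 8 months, 11.70. In every gene the ranges at 11 and 14 months overlapped between heifers, so these levels alone do not order the ages. Within heifers TGM3 was lower at 11 than at 14 months in 3 of 4, and no tested gene of the panel passed at 11 months. TGM3 had medians of 9.41, 9.74 and 11.18, and its ages overlapped too.

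Whether both arrays of a heifer carried the same 14-month RNA extract is not given in the labels. Ratios at 8 and 11 months were set against each other through the 14-month channel of each array. The 8-month ratio minus the 11-month ratio was 2.35 ± 0.98 for TMEM79, 2.83 ± 1.66 for PI3 and 2.65 ± 1.26 for MAL, positive in 4 of 4 heifers in each. It was 2.10 ± 1.68 for SFN and 1.85 ± 1.80 for IVL, positive in 3 of 4 heifers because heifer 2 stood at -0.03 and -0.44. For MAL the difference rests on the 14-month channels that disagreed in heifers 3 and 4. The normalized log2 levels of MAL itself were 13.49, 12.79, 11.70 and 12.23 at 8 months, against 9.98, 10.15, 10.64 and 12.77 at 11 months, so heifer 4 was lower at 8 months. With the 14-month level of the other array, MAL stood at 2.01 at 8 months and 1.33 at 11 months. TGM3 stood at -0.07 ± 0.52, TP63 at -0.13 ± 0.74 and TGM1 at 0.12 ± 0.39 (SD, n = 4 each). All 8-month RNA was on 1 set of arrays and all 11-month RNA on the other, so age and array set cannot be told apart in these differences.

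Across the 8 arrays, which share heifers and the 14-month age, the patterns of the genes were compared by Pearson correlation, given as a description. MAL and PI3 correlated at 0.96, TMEM79 with PI3 at 0.92 and with MAL at 0.85. SFN and IVL correlated at 0.84, SFN and TMEM79 also at 0.84, and IVL and TMEM79 at 0.75. PI3 and MAL correlated with SFN at 0.70 and 0.68 and with IVL at 0.63 and 0.60, so these genes did not form separate groups. TGM3 stood between -0.09 and 0.50 with the others, and TP63 between -0.26 and 0.33. By ratio, PI3 and MAL were highest in heifer 1 at 8 months and higher in heifers 1 and 4 at 11 months. SFN and IVL were highest in heifers 1 and 4 at 8 months and showed little at 11 months.

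The genes whose ratios were most like each of these, among 10141 other genes on the 8 arrays, were found the same way. For SFN they were KRT6A at 0.976 and KRT6C at 0.974, keratins whose near-identical copies make the signal uncertain, and PFDN2 at 0.963. For IVL they were the peroxidase gene LPO at 0.993, CSTB at 0.957 and KRT17 at 0.952. For PI3 they were EPS8L1 at 0.976, OSTF1 at 0.975 and TENT5B at 0.969, and for MAL they were TMED2 at 0.982, TENT5B at 0.967 and PI3 itself. For TMEM79 they were the creatine kinase gene CKB at 0.988, BAZ2A at 0.976 and TMPRSS11A at 0.961. TGM3 was closest to LHX8 at 0.951, to the immunoglobulin joining chain gene JCHAIN at 0.947 and to CDC42SE2 at 0.937, and TP63, near background, to T2R12, ROCK2 and L3MBTL3 at 0.921, 0.920 and 0.912. The closest genes had mean ratios at 8 months of 3.46 for KRT6A, 1.53 for LPO, 1.02 for EPS8L1, 0.91 for TMED2, 3.30 for CKB and -0.14 for LHX8.

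Other genes of squamous differentiation were taken from 11 lists, also written with earlier results known. Of 108 genes listed, 85 had a named probe and 49 were measured. At 8 months 4 of the 49 rose and 0 fell, so that 8.16% were called, against 4.63% of all genes, 3.85% as higher and 0.784% as lower. At 11 months 0 of 49 passed, against 0% of all probes. The median ratio of the 49 was 0.47 at 8 months and 0.07 at 11 months, and 39 and 31 of them lay above 0. The 4 genes were PPL, MALL, ZNF750 and KRT5, of which KRT5 passed the filter on dim probes only through the 8-month samples. Without heifer 3 the count was 0 and without heifer 4 it was 1, against 9 without heifer 2 and 4 without heifer 1.

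Among cornified envelope proteins, 7 of 27 were measured and 1 rose, where 3.85% of all genes rose. Counts this small do not set any of the lists apart from all genes. PPL, which encodes periplakin, a plakin that anchors keratin filaments to the envelope, had ratios of 3.43, 2.46, 3.95 and 3.46 in heifers 1 to 4 at 8 months, a rise of 3.32 ± 0.63 (SD, n = 4; limma adjusted p = 0.00281). At 11 months its ratios were 0.00, -0.56 and 0.65 in heifers 1 to 3, the spot of heifer 4 being left out. The fitted ratio was 0.15, which depends on the dye term because the dyes were not balanced. ANXA1 (annexin A1) stood at 1.83 ± 0.97 (adjusted p = 0.0736), TCHH (trichohyalin) at -1.39 ± 0.69 (adjusted p = 0.130) and CDSN (corneodesmosin) at 0.27 ± 1.20, none of which passed. Other envelope genes gave little signal: LORICRIN, EVPL, CSTA, SCEL, CRNN, KRTDAP, RPTN, TCHHL1, CASP14, LY6D, SBSN and DMKN had probes that did not pass the filter on dim probes. The 8 others, among them FLG, HRNR and SPRR3, had no probe of that name.

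Among the measured relatives of the 8 genes 1 rose at 8 months, where 3.85% of all genes rose. Of the 14-3-3 relatives of SFN, 6 of 6 were measured and 0 passed, the furthest from 0 being YWHAB at 0.71 ± 0.52, YWHAQ at -0.62 ± 0.35, YWHAH at -0.52 ± 0.52 and YWHAZ at 0.52 ± 0.42. Of the MAL relatives, MALL rose, with ratios of 3.74, 0.84, 3.30 and 3.01 and a mean of 2.72 ± 1.29 (limma adjusted p = 0.0167), and MAL2 stood at 0.39 ± 0.42. Of the transglutaminases, TGM2 stood at 0.16 ± 0.49 and the clotting factor gene F13A1 at -1.06 ± 1.31, and neither passed. Of the 4 WAP protease inhibitors measured, the family of PI3, 0 passed: WFDC2 stood at 1.53 ± 1.59, WFDC3 at 0.83 ± 1.42, SLPI at -0.20 ± 0.80 and WFDC1 at 0.05 ± 0.28. TP73, the relative of TP63, stood at 0.07 ± 0.51.

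Of 7 regulators of squamous differentiation measured, 1 rose, against 3.85% of all genes. ZNF750, a p63 target that promotes terminal differentiation, had ratios of 4.88, 2.72, 1.61 and 2.03, a mean of 2.81 ± 1.45 (limma adjusted p = 0.0393). EHF stood at 1.42 ± 0.90 (adjusted p = 0.0585), KLF4 at 0.77 ± 1.30 and KLF5 at 0.77 ± 0.88, and GRHL2, GRHL3, OVOL1 and ELF3 did not pass the filter. Among basal and p63 target genes 1 of 9 rose, against the same 3.85%: KRT5, the basal keratin, by 2.31 ± 0.85 (limma adjusted p = 0.00828), with 4 of 4 heifers above background at 8 months, 1 of 4 at 11 months and 1 of 8 channels at 14 months. KRT5 passed the filter only through the 8-month samples, where it was high, and the size of its ratio is uncertain because most 14-month readings were at background. Its partner KRT14 had ratios of 4.66, 0.05, 0.82 and 4.23, a mean of 2.44 ± 2.34 that did not pass (adjusted p = 0.0902). PERP stood at -1.40 ± 0.79, but its other probe gave 2.94, so PERP has no settled direction. JAG2 stood at -1.26 ± 0.61, its other probe at 0.13.

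Of 6 keratinocyte proteases and inhibitors measured 0 passed, with SERPINB4 at 1.75 ± 2.52, PRSS8 at 1.42 ± 1.48, SERPINB2 at 0.48 ± 0.88 and KLK10 at 0.26 ± 0.46. Of 5 desmosome genes 0 passed, with DSP (desmoplakin) at 2.32 ± 0.95 (adjusted p = 0.0626), DSG2 at 1.84 ± 1.69, JUP at 0.52 ± 0.32 and PKP2 at 0.47 ± 0.45. Of the 8 genes of the epidermal lipid barrier 0 were measured, so nothing is said of them.

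**Figure D3:**
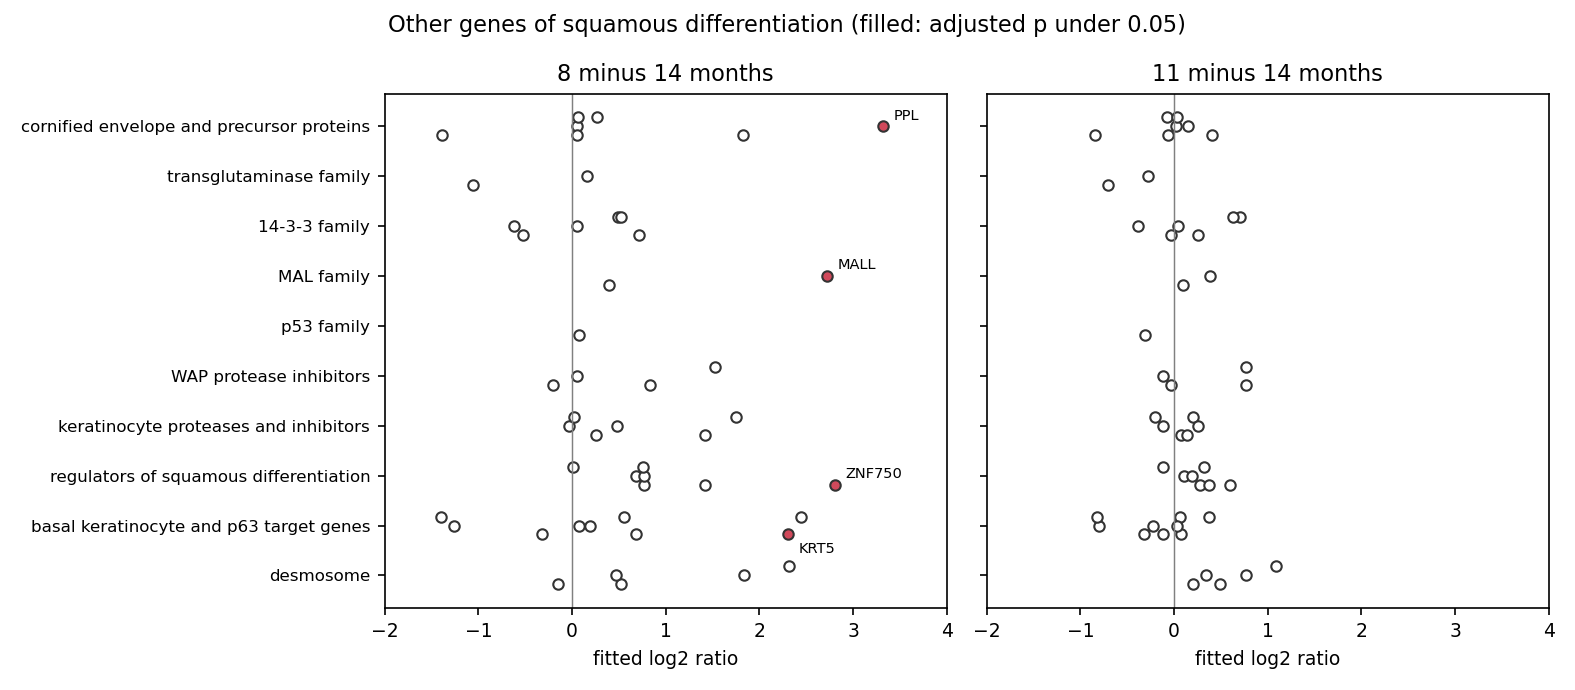
Fitted log2 ratio (horizontal axis) of the 49 measured genes of squamous differentiation by list (rows), with 8 minus 14 months on the left and 11 minus 14 months on the right. Filled points passed an adjusted p under 0.05: PPL, MALL, ZNF750 and KRT5 at 8 months and none at 11 months.

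Markers of other cell types were high on some of the same arrays. Of 12 markers of stratified squamous epithelium 6 were measured, while KRT10, DSG3 and CRNN were not above background and KRT1, DSC3 and SPRR3 had no named probe. Their median ratio was 4.95, 0.90, 2.66 and 4.48 in heifers 1 to 4 at 8 months and 0.24, 0.29, 0.06 and 1.25 at 11 months. Their summed level ranged from 2950 to 130000 at 8 months, from 1440 to 8170 at 11 months and from 1460 to 5480 at 14 months, with heifer 2 lowest at 8 months, as for SFN and IVL. The median of the 8 genes was 3.30, 0.29, 1.44 and 2.03 at 8 months and 0.23, -0.18, -0.20 and 0.08 at 11 months. By both median ratios heifer 2 was lowest and heifer 1 highest at 8 months. By summed level of the squamous markers heifer 4 was highest, at 130000, against 111000 in heifer 1. The medians over all genes lay within 0.05 of 0 on every array. Of the squamous markers, KRT4 rose at 8 months by 4.29 ± 1.97, KRT78 by 4.34 ± 1.90, KRT6A by 3.46 ± 2.12 and KRT5 by 2.31 ± 0.85. Their limma adjusted p were 0.0167, 0.0123, 0.0344 and 0.00828, where 3.85% of all genes rose, and KRT13 and KRT14 did not pass. KRT5 passed the filter on dim probes only through the 8-month samples, where it was high, so the size of its ratio is uncertain. The part of squamous cells in the values of the 8 genes was not tested.

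Markers of ciliated and oviduct epithelium, of which 6 of 10 were measured and DNAI2, CCDC39, RSPH1 and PAX8 were not above background, were highest in heifer 2 at 8 months and in heifer 4 at 11 months. Their medians were 3.28, 4.30, 0.10 and 0.07 at 8 months and 1.69, -0.29, 0.28 and 3.35 at 11 months, with summed levels from 1000 to 84200 at 8 months, from 1000 to 69400 at 11 months and from 878 to 6540 at 14 months. In heifers 3 and 4, with low cilia markers at 8 months, the 8-month ratios were 1.21 and 3.13 for SFN, 1.67 and 3.25 for IVL, 2.55 and 2.42 for PI3, 3.14 and 2.10 for MAL and 1.72 and 1.97 for TMEM79. The fit without the 8-month arrays of heifers 1 and 2 gave 2.67, 2.07, 2.00, 2.53 and 1.67 for these 5 genes in that order. Both arrays left had the younger age in Cy3, so these fitted values depend on a dye term taken from the 11-month arrays and are not means of the remaining heifers. At 11 months the ratios in heifers 2 and 3, with low cilia markers, were -1.54 and 0.47 for PI3 and -1.62 and -0.45 for MAL, against 1.61 and 1.54 and 2.14 and 1.31 in heifers 1 and 4. The ratios of SFN, IVL and TMEM79 were not split this way. In heifers 2 and 3 SFN stood at 0.59 and -0.39, IVL at 0.19 and 0.11 and TMEM79 at -0.54 and 0.21. In heifers 1 and 4 SFN stood at 0.44 and -0.57, IVL at -0.82 and 0.82 and TMEM79 at 0.02 and -0.02. The heifers were grouped by cilia markers after the values were seen, and the part of ciliated cells in these ratios was not tested.

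Of 8 markers of simple epithelium 7 were measured, with CDH1 not above background, and their medians were 4.08, 2.04, 1.65 and 0.40 at 8 months and 0.18, 0.12, -0.09 and 1.80 at 11 months. Their sums ranged from 93300 to 185000 at 8 months, from 45300 to 157000 at 11 months and from 36600 to 103000 at 14 months. Of 4 theca markers 3 were measured, with CYP17A1 not above background, and their medians were 0.07, 0.85, 0.26 and 0.52 at 8 months and -0.03, -0.23, 0.27 and 0.96 at 11 months. Their sums ranged from 1090 to 2260 at 8 months, from 957 to 1510 at 11 months and from 829 to 1430 at 14 months. Single markers of these lists passed the test at 8 months, where 3.85% of all genes rose. THY1 rose by 1.12 ± 0.44 (limma adjusted p = 0.0385), and INSL3 and NR2F2 did not pass. Of the simple epithelium markers, KRT7 rose by 2.69 ± 0.97, CLDN4 by 3.07 ± 1.91 and MUC1 by 2.75 ± 1.69. Their limma adjusted p were 0.0325, 0.0292 and 0.0271, and EPCAM, KRT8, KRT18 and KRT19 did not pass. No granulosa, leukocyte or ciliated marker passed. Granulosa markers had medians of -0.10, -1.24, -0.27 and -0.17 at 8 months and 0.15, -0.09, -0.22 and -1.24 at 11 months. Of 7 leukocyte markers 6 were measured, ITGAM not being above background. Their medians were -0.06, -2.03, -0.61 and -1.30 at 8 months and -0.56, -1.64, -0.18 and 0.00 at 11 months. The leukocyte sum at 14 months was 14900 and 12400 on the 2 arrays of heifer 1 and 34900 and 47300 on those of heifer 2. It was 30100 and 12400 on the arrays of heifer 3 and 28800 and 14900 on those of heifer 4. The part of these cells in the values was not tested.

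**Figure D4:**
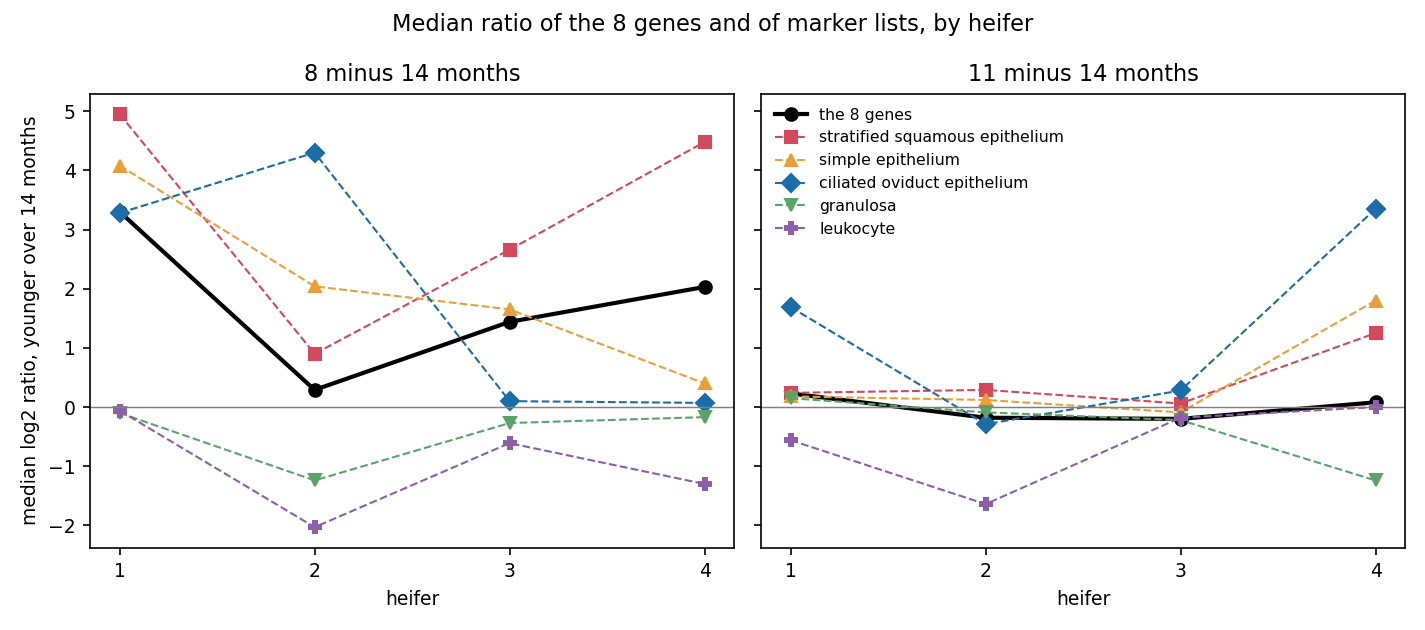
Median log2 ratio (vertical axis) of the 8 genes and of 5 marker lists in each heifer (horizontal axis), with 8 minus 14 months on the left and 11 minus 14 months on the right. The 8 genes and the squamous markers are both lowest in heifer 2 at 8 months, where the cilia markers are highest, and the leukocyte and granulosa markers lie near or below 0.

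The chromosomal neighbours of the 8 genes were taken as the 5 protein-coding genes on each side in the ARS-UCD2.0 annotation. Of 80 such genes 39 were measured, and 2 rose at 8 months and 0 fell, where 3.85% of all genes rose, so nothing is read from the count. They were MALL, which lies near MAL, and NUDC, a dynein co-factor near SFN, which rose by 1.38 ± 0.86 (limma adjusted p = 0.0264). The others measured near MAL, BUB1 at -0.39, MRPS5 at -0.31 and ZNF2 at -0.40, did not pass. IVL lies in the cluster of envelope genes, where SPRR4 stood at 0.06 ± 0.26, LCE1B at 0.07 ± 0.67 and LOC783113 at 1.49 ± 1.69. LOC783113 was above background in 3 of 4 heifers at 8 months and in 0 of the 14-month channels of those arrays. It passed the filter only through the 8-month samples, so the size of its ratio is uncertain. Near PI3, SLPI stood at -0.20 and KCNS1 at -1.31 ± 0.86, and near TP63 the tight junction gene CLDN1 stood at 1.64 ± 0.90 (adjusted p = 0.0595). The neighbours of TGM1, TGM3 and TMEM79 ranged from -1.06 to 0.57, and 0 of 19 measured passed. The neighbours named here were chosen after their values were seen.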

How the data were processed

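Per the file headers, the deposited scanner tables give median and mean spot intensity in both channels, neither corrected nor normalized. The authors' deposited log2 ratios followed Cy5 over Cy3 after loess, at a correlation of 0.999 or more per array and a slope of 0.989 or more, with medians per column between -0.021 and 0.00083. The sources used here do not say how the authors normalized these ratios, which served as an alternative.

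The tools were R 4.3.3 and limma 3.58.1. Normexp (offset 50) was applied to the median intensities, loess was run within arrays with control spots at no weight, and marked spots, 22 to 59 per array, were left out. A probe was kept if, at any age, no fewer than 3 of the 4 heifers were above background, which held for 22692 of 43794, and the brightest kept probe stood for a gene. The fit to all 8 arrays had a term for each comparison, a dye term and the heifer as a random block, with a within-heifer correlation of 0.159. Benjamini-Hochberg adjustment ran over the kept probes, at a threshold of 0.05. The number of arrays limits the precision. Per the labels, the replicate numbers pair arrays of the same animal, and the residuals of the 2 arrays of a heifer around their group means had correlations of 0.378, 0.275, 0.446 and -0.110 in heifers 1 to 4.

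The members, lists and rules were chosen with earlier results of these data known. All 8 members are named, up to 4 measured genes of each list with the largest ratio at 8 months, every listed gene that passed, and the 3 genes most like each kept member. Symbols are those of the platform annotation, 1524 probes of which were updated through the ARS-UCD2.0 gene table. Normalization settings, probe filters, the block, the dye term, array weights and each heifer were varied.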

Additional observations from a re-analysis of the deposited data

Results flagged for a closer look

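Of 32 groups of 4 values checked among the 8 genes, 2 held a value far from the other 3, and chance alone flags about 1 in 20 such groups. The log2 ratio of PI3 at 8 over 14 months was 6.18 in heifer 1, against 2.55 for the next heifer and 2.23 for the lowest. The normalized log2 level of TGM3 at 8 months was 11.14 in heifer 1, against 9.45 for the next heifer and 9.23 for the lowest. The cause was not tested for either.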

How the results depend on the processing

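Without the replicate block the median ratio of the 8 genes stayed at 2.02 at 8 months and 0.04 at 11 months, with 993 probes and 5 listed genes called at 8 months, against 871 and 4 with the block; the block changed no other call on the median or the counts. The median of the 8 genes ranged from 1.45 to 2.62 at 8 months over the 20 alternatives, and from 1.45 to 2.62 when each heifer was left out. At 11 months it ranged from -0.19 to 0.13, with -0.19 where the 14-month level came from the heifer's other array, and from -0.12 to 0.13 without each heifer. The count of probes called at 8 months was 1708 (1261 higher) with median centring, 1393 (1129 higher) with mean intensities, 3236 (1640 higher) with the arrays of that comparison alone and 3553 (1809 higher) with array weights. Leaving out 1 heifer gave 0 to 1705 probes, with 0 without heifer 3 and 37 without heifer 4. Listed genes called at 8 months were 8, 12 and 15 with median centring, the arrays of that comparison alone and array weights, 7 when heifers 1 and 4 lost their 11-month arrays, and 0 to 9 without each heifer. The causes were not tested. At 11 months the count of probes and of listed genes was 0 under every alternative. The settings on single arrays and on the 14-month reading were chosen after seeing the data, and leaving out all 4 arrays with high cilia markers at once was not run because the block could not be fitted. TP63, TGM1 and the 11 and 14-month readings of SFN and IVL lie near background, which limits their ratios.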
